A study of Mus musculus with 10 samples.

Results

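Ttr, Folr1, Kl, Otx2, Enpp2, Clic6, Kcnj13, Prlr, Sostdc1 and Cldn2 are genes by which the epithelium of the choroid plexus is known, and in a series of 10 hippocampal RNA libraries they were high in 2 of them, Visudyne 3 and Visudyne 5. The genes were chosen by symbol because of that pattern, so their levels in the 10 libraries are given as a description and the choice of the 2 libraries was not tested. All 10 were found among the 27343 genes of the deposited count table, and all 10 were tested between the treatment groups. Folr1 passed the filter on low counts only through Visudyne 3 and 5, where it was high.

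The 5 Visudyne libraries came from wild-type male C57BL/6J mice, 2 months old, that received Visudyne, the photosensitizer verteporfin, into the cisterna magna, and then light of 689 nm over the skull to convert it, a procedure used to ablate meningeal lymphatic vessels. The 5 vehicle libraries came from mice of the same strain, sex, age and genotype that received vehicle in place of Visudyne, and light of 689 nm as well. In both groups the procedure was done again after 2 weeks, the Morris water maze followed a further 2 weeks later, and the whole hippocampus was dissected 3 days after it. The whole hippocampus is a mixture of cell types, in which fewer cells of a type and less RNA per cell cannot be told apart.

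The choroid plexus hangs into the brain ventricles. Its cuboidal epithelium secretes cerebrospinal fluid, imports folate, hormones and vitamins from blood, and is sealed by tight junctions, while its capillaries are leaky. The hippocampus borders the lateral ventricle, where the plexus is attached along the fimbria, so plexus tissue lies beside a dissected hippocampus. Transthyretin is among the most abundant products of this epithelium. Enpp2 and Kl are also made elsewhere in the brain, Enpp2 by oligodendrocytes and Kl by neurons.

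Promoters of 4 of these genes are shown because the genes were high together. Of the 10 genes, RefSeq promoters (GRCm38.p6) were taken for 5, and the 250 bases before the start site are printed in lower case, 5′ to 3′, on the gene's strand. Capitals mark matches to TATAAA, the word of the TATA box, at any position in the window. TATAAA and TAATCC, the core sequence bound by OTX2, were searched on both strands, and neither word overlaps the other.
Kcnj13, chr1:87394730-87394979, minus strand: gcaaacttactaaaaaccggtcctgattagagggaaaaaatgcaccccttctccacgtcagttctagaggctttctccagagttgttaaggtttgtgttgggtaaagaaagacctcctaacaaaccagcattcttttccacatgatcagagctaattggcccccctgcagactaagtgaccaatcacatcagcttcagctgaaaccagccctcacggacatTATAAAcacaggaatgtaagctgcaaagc
Cldn2, chrX:139800558-139800807, plus strand: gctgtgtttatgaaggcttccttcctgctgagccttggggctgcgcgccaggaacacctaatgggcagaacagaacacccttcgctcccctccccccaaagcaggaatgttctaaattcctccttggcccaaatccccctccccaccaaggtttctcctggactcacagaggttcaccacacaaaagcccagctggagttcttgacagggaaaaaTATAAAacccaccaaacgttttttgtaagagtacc
Otx2, chr14:48667645-48667894, minus strand: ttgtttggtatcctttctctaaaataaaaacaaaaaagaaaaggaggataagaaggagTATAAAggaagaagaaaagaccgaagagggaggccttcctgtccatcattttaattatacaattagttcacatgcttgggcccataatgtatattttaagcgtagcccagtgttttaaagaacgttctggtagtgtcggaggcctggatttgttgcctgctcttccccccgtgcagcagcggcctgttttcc
Kl, chr5:150952357-150952606, plus strand: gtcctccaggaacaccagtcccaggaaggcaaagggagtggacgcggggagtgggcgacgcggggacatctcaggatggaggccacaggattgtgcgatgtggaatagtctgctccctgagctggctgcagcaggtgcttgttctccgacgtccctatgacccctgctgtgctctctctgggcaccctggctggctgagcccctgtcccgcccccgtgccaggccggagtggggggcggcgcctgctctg
TATAAA began at position -29 from the start of Kcnj13, at -35 for Cldn2 and at -192 for this start of Otx2. It was held by 3 of 10 promoter windows of the 5 genes and by 12.4% of all 32851 windows of the same length. TAATCC was in 1 of the 10 windows, that of a further Otx2 start, and in 6.25% of all windows. Several of the 10 windows belong to Otx2 or Prlr, and Otx2 windows overlap in part, so nothing is read from these shares. The printed Kl window held neither word and was 66.8% GC, against 45.2% for Kcnj13.

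Among 15938 tested genes, Visudyne 3 and Visudyne 5 were the 2 highest of the 10 libraries in 385, or 2.42%. All 10 choroid plexus genes were among these, which their choice fixed. Both libraries stood at least 2-fold above the highest of the other 8 in 16 tested genes, or 0.1%, and 8 of the 10 were among those 16. Nothing is read from this count, since the 10 were chosen for being high in these libraries. The gap was widest for Ttr, at 28.6-fold, and the 2 genes just outside the 2-fold line were Prlr and Kl, at 1.83-fold each, while Folr1 was just inside it at 2.11-fold. With total counts in place of TMM library sizes the gap of Folr1 was 0.69 on the log2 scale, below 2-fold, and that of Prlr was 1.18, above it.

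Levels are given in CPM, a gene's count relative to the TMM-scaled total of its library. Ttr (ENSMUSG00000061808, GRCm38 chromosome 18, 20665280 to 20674321) encodes transthyretin, which carries thyroxine and retinol-binding protein. Its level was 304.2 CPM in Visudyne 3, with 229.5 CPM in Visudyne 5, beside 2.01, 1.15 and 1.63 CPM in Visudyne 1, 2 and 4 and 6.44, 6.05, 2.90, 1.83 and 8.03 CPM in vehicle 6 to 10. The 2 high libraries were 60.3 and 45.5 times the vehicle mean, and the other Visudyne libraries all lay below 4 of the 5 vehicle libraries. Counts behind these values were 9527 and 8798 in Visudyne 3 and 5 and 36 to 280 in the other libraries.

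Enpp2 (ENSMUSG00000022425, chromosome 15, 54838901 to 54952892) encodes autotaxin, a secreted enzyme that makes lysophosphatidic acid. Its level was 1054 CPM in Visudyne 3, with 627.6 CPM in Visudyne 5, beside 193.9, 165.7 and 176.6 CPM in Visudyne 1, 2 and 4 and 205.8, 203.4, 217.4, 160.7 and 206.8 CPM in vehicle 6 to 10. Unlike Ttr, it was abundant in every library, and Visudyne 1, 2 and 4 lay within the range of the vehicle libraries. Sostdc1 (ENSMUSG00000036169, chromosome 12, 36314139 to 36318452), a secreted inhibitor of BMP and Wnt signalling, measured 15.5 CPM in Visudyne 3, with 7.80 CPM in Visudyne 5, beside 2.61, 1.91 and 1.63 CPM in Visudyne 1, 2 and 4 and 2.28, 1.82, 1.45, 1.68 and 2.44 CPM in vehicle 6 to 10. Visudyne 1 was the highest of the other 8 libraries for this gene.

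Of the receptors, Folr1 (ENSMUSG00000001827, chromosome 7, 101858331 to 101870788), the folate receptor that carries folate towards the cerebrospinal fluid, was scarce throughout. Its level was 1.02 CPM in Visudyne 3, with 1.23 CPM in Visudyne 5, beside 0.0628, 0.0318 and 0.118 CPM in Visudyne 1, 2 and 4 and 0.437, 0.143, 0.0906, 0.483 and 0.355 CPM in vehicle 6 to 10. These rest on 32 and 47 counts in Visudyne 3 and 5 and on 19 counts or fewer elsewhere. The exact 95% Poisson intervals, which cover counting error only, were 0.699 to 1.44 CPM in Visudyne 3 and 0.291 to 0.755 CPM in vehicle 9, the highest of the other libraries, and they overlap. The interval of Visudyne 5, 0.901 to 1.63 CPM, does not overlap that of vehicle 9.

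Prlr (ENSMUSG00000005268, chromosome 15, 10177238 to 10349180), the prolactin receptor, measured 59.0 CPM in Visudyne 3, with 30.8 CPM in Visudyne 5, beside 16.8, 9.80 and 8.19 CPM in Visudyne 1, 2 and 4 and 9.06, 8.75, 6.68, 8.55 and 7.80 CPM in vehicle 6 to 10. Visudyne 1 and 2 were above every vehicle library, which held for no other of the 10 genes. Kl (ENSMUSG00000058488, chromosome 5, 150952607 to 150993817), which encodes klotho, a co-receptor for the hormone FGF23, measured 76.6 CPM in Visudyne 3, with 45.9 CPM in Visudyne 5, beside 25.1, 20.8 and 19.5 CPM in Visudyne 1, 2 and 4 and 22.6, 18.9, 18.2, 18.9 and 22.5 CPM in vehicle 6 to 10. Kl thus had a steady level in the libraries outside the 2 high ones, from 18.2 to 25.1 CPM.

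Among the channel and junction genes, Kcnj13 (ENSMUSG00000079436, chromosome 1, 87386363 to 87394729) encodes the inwardly rectifying potassium channel Kir7.1. Its level was 9.87 CPM in Visudyne 3, with 6.34 CPM in Visudyne 5, beside 1.22, 0.446 and 0.828 CPM in Visudyne 1, 2 and 4 and 0.943, 1.34, 0.498, 1.02 and 1.18 CPM in vehicle 6 to 10. Clic6 (ENSMUSG00000022949, chromosome 16, 92485736 to 92541243), of the chloride intracellular channel family, measured 21.4 CPM in Visudyne 3, with 15 CPM in Visudyne 5, beside 1.07, 0.382 and 0.709 CPM in Visudyne 1, 2 and 4 and 1.54, 1.08, 0.589, 0.636 and 1.38 CPM in vehicle 6 to 10. For both genes Visudyne 2 was the lowest of the 10 libraries.

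Cldn2 (ENSMUSG00000047230, chromosome X, 139800828 to 139811386) encodes claudin-2, which forms cation pores between epithelial cells. Its level was 6.19 CPM in Visudyne 3, with 3.39 CPM in Visudyne 5, beside 0.314, 0.350 and 0.384 CPM in Visudyne 1, 2 and 4 and 0.437, 0.371, 0.294, 0.356 and 0.394 CPM in vehicle 6 to 10. Outside the 2 high libraries it had only 10 to 19 counts. Otx2 (ENSMUSG00000021848, chromosome 14, 48657677 to 48673819), a homeobox transcription factor needed to form and keep the plexus, measured 5.14 CPM in Visudyne 3, with 3.83 CPM in Visudyne 5, beside 0.879, 0.127 and 0.562 CPM in Visudyne 1, 2 and 4 and 0.943, 0.656, 0.634, 0.433 and 0.473 CPM in vehicle 6 to 10. For both Cldn2 and Otx2, vehicle 6 was the highest of the other 8 libraries.

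**Figure D1:**
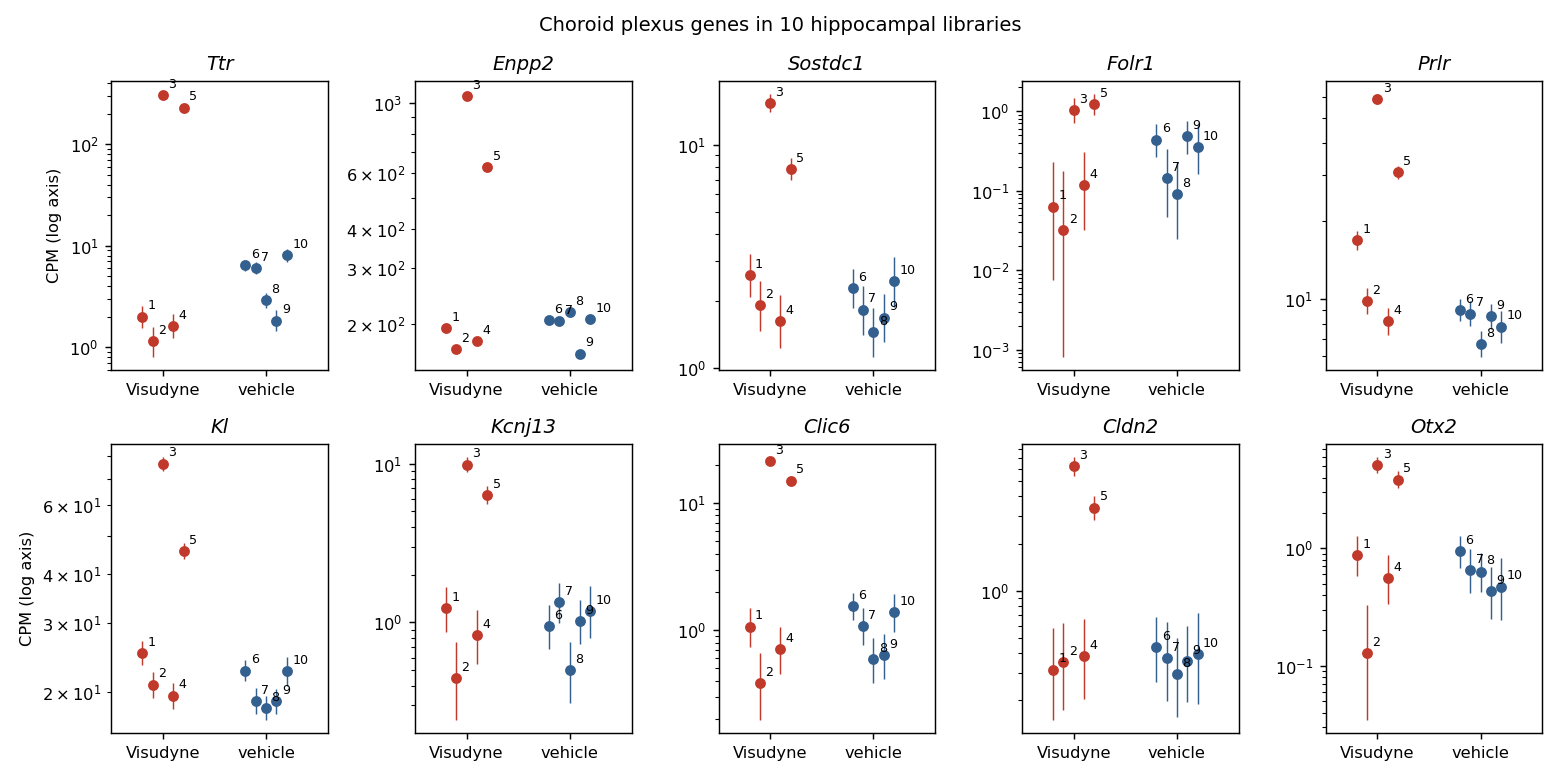
Level of each of the 10 choroid plexus genes in CPM (log axis) in the 5 Visudyne and 5 vehicle libraries, with 1 numbered point per library and its exact 95% Poisson interval as a bar. Visudyne 3 and 5 are the 2 highest in every panel, and Ttr reaches 304.2 and 229.5 CPM there, against 8.03 CPM at most elsewhere.

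Of 5 genes that overlap these in the annotation, 1 shared the pattern, at a level near 0. Gigyf2, on the opposite strand over Kcnj13, measured 81.3 CPM in Visudyne 3, with 76.4 CPM in Visudyne 5, against 68.8 to 85.9 CPM in the other libraries. Anapc15, opposite Folr1, stood at 8.27 and 8.53 CPM, against 7.58 to 9.29 CPM in the others. Gm26684, opposite Enpp2, was at 0.128 and 0.130 CPM in Visudyne 3 and 5, against 0 to 0.114 CPM in the others. Otx2os1, opposite Otx2, and 2410124H12Rik, on the strand of Clic6, were at 0.118 CPM or less in every library. The kit keeps strand, but how strand was used in counting is not given in the sources used here, so reads of such partners may be mixed. Folr1 has close paralogs whose reads a counter may split.

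Per kilobase of exon the order of the genes changed in the 2 high libraries. In vehicle, Enpp2 led at 34.4 ± 3.80 CPM per kilobase, before Ttr at 4.26 ± 2.18, Kl at 2.17 ± 0.233, Sostdc1 at 1.09 ± 0.233, Kcnj13 at 0.784 ± 0.250 and Prlr at 0.533 ± 0.0621 CPM per kilobase (SD, n = 5). Clic6 at 0.267 ± 0.109, Otx2 at 0.149 ± 0.0477, Folr1 at 0.131 ± 0.0766 and Cldn2 at 0.111 ± 0.0157 CPM per kilobase came last. Mean ± SD ranges of neighbours in this order overlapped except between Enpp2 and Ttr, Kl and Sostdc1, and Prlr and Clic6. In Visudyne 3, Ttr led at 256.5 CPM per kilobase before Enpp2 at 182.4, and in Visudyne 5 at 193.5 before Enpp2 at 108.6 CPM per kilobase. The next level in each was 8.70 for Sostdc1 in Visudyne 3 and 4.99 for Kcnj13 in Visudyne 5.

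The 2 high libraries differed from each other in a gene-dependent way. Visudyne 3 was the higher of the 2 for 9 of the 10 genes, and Visudyne 5 for Folr1. The excess of a library was taken as its CPM less the vehicle mean. Excess in Visudyne 5 as a ratio of that in Visudyne 3 was 0.433 for Sostdc1, 0.445 for Prlr, 0.455 for Kl, 0.501 for Enpp2 and 0.519 for Cldn2, but 0.686 for Clic6, 0.711 for Otx2, 0.750 for Ttr and 1.28 for Folr1. Kcnj13 lay between at 0.602. With each library's trend on GC content removed the ratio ran from 0.421 for Kl to 1.02 for Folr1, and that of Ttr was 0.744. Visudyne 3 and 5 also differed in other library measures, such as the share of counts on mt-Rnr2, a mitochondrial ribosomal RNA gene, which was 39.2% and 33.6%, and whether these bear on the ratios was not tested. Enpp2 and Ttr together made up most of the summed excess, with 65.0% and 22.7% in Visudyne 3 and 58.4% and 30.6% in Visudyne 5.

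**Figure D2:**
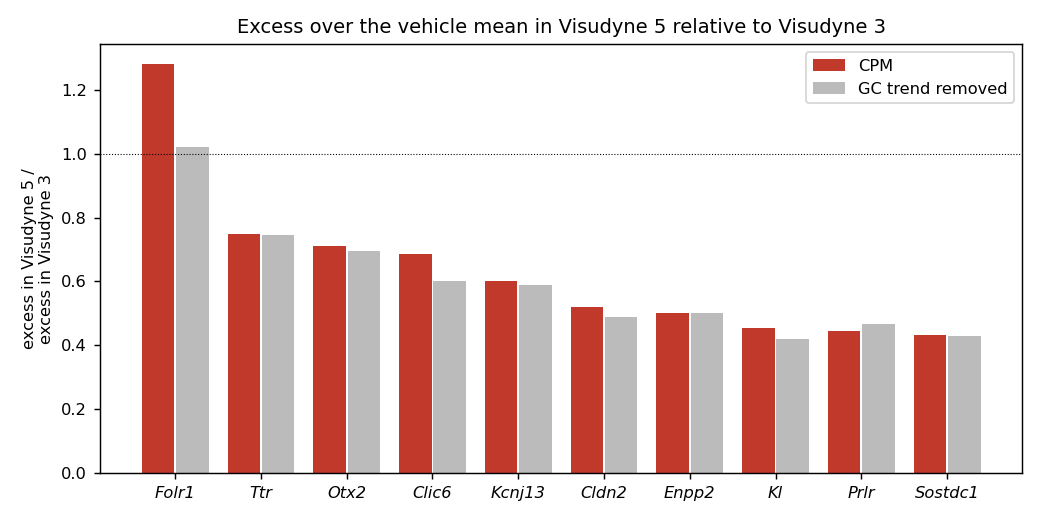
Excess over the vehicle mean in Visudyne 5 divided by that in Visudyne 3 for each of the 10 genes, in CPM and after removal of each library's GC trend. The ratio in CPM lies between 0.433 and 0.750 for 9 genes and is 1.28 for Folr1, which has 32 and 47 counts in the 2 libraries.

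Between the treatment groups all 10 genes had a positive log2 fold change, and 3 were called higher in Visudyne and 0 lower by edgeR's quasi-likelihood test at a Benjamini-Hochberg adjusted p under 0.05. Of all tested genes 8.98% were called higher, 11.5% lower and 20.5% either way. Since Visudyne 3 and 5 are members of the Visudyne group and chose the genes, nothing is read from this count. Ttr averaged 107.7 ± 147.7 CPM over the Visudyne libraries, against 5.05 ± 2.59 CPM over the vehicle libraries (SD, n = 5 each), a log2 difference of 4.44 ± 1.40 (SE) with an edgeR adjusted p of 0.043. That of Cldn2 was 2.52 ± 0.80 (edgeR adjusted p = 0.045) and that of Prlr 1.61 ± 0.45 (edgeR adjusted p = 0.034). The 7 that were not called had log2 fold changes from 0.73 for Folr1 to 2.90 for Clic6, whose edgeR adjusted p was 0.051. Both groups overlapped for every one of the 10, since a Visudyne library lay at or below the highest vehicle library in each. Groups did not overlap in 12.5% of all tested genes. Leaving out 1 library moved the calls: 0 of the 10 genes were called by edgeR without Visudyne 3, vehicle 6, vehicle 7, vehicle 8 or vehicle 9, where 4, 9, 8, 8 and 7 had an unadjusted p under 0.05, and 1 was called without Visudyne 5 or vehicle 10 and 7 without Visudyne 2. Over all genes, 5332 had an unadjusted p under 0.05 without Visudyne 3, and 5134, 5906, 6020 and 5281 without vehicle 6, 7, 8 and 9. Calls over all genes moved too, to 27 without Visudyne 3 and to 10, 1567, 2196 and 309 without vehicle 6, 7, 8 and 9. They were 5047 without Visudyne 5, 3644 without vehicle 10 and 1826 without Visudyne 2, against 3261 with all libraries. The log2 fold changes without vehicle 6 were 4.55 for Ttr, 1.64 for Prlr and 2.58 for Cldn2, and without Visudyne 3 they were 3.57, 1.01 and 1.61.

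Without Visudyne 3 and 5, 7 of the 10 genes had a negative log2 fold change and 3, Kl, Prlr and Sostdc1, a positive one. The 2 libraries were left out of the Visudyne group because they were the highest for these genes, so these values describe the other 8 libraries, and nothing is read from the tests of the 10 genes there. The log2 fold change was -1.65 ± 0.46 (SE) for Ttr and -2.01 ± 0.71 for Folr1, which had 1 to 4 counts in Visudyne 1, 2 and 4. Visudyne 1, 2 and 4 all lay below 4 of the vehicle libraries for Ttr, but Visudyne 1, at 2.01 CPM, lay above vehicle 9, at 1.83 CPM. The other 8 had log2 fold changes from -0.52 for Clic6 to 0.51 for Prlr. Kl and Sostdc1 turned negative with total counts, a scaling that put the median of all genes at -0.24. Of all 16356 genes tested in these 8 libraries, 7.81% were called higher, 10.6% lower and 18.4% either way.

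**Figure D3:**
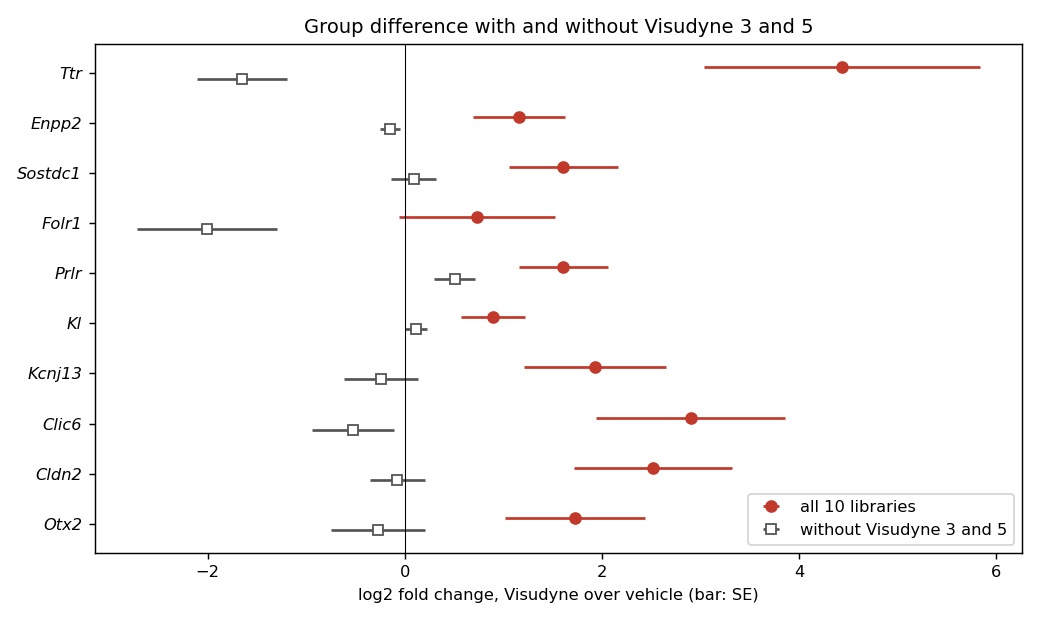
Log2 fold change of each gene, Visudyne over vehicle, with its SE as a bar, fitted on all 10 libraries (filled) and without Visudyne 3 and 5 (open). Ttr moves to -1.65 and Folr1 to -2.01 without the 2 libraries, and the other 8 lie between -0.52 and 0.51.

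Further genes of choroid plexus epithelium went with the 10. Of a list of 40, 39 were in the table, and in 29 of those Visudyne 3 and 5 were the 2 highest libraries, in 12 by at least 2-fold. The list was written with earlier results of these libraries known. Kcne2, a potassium channel subunit gene, measured 7.44 CPM in Visudyne 3, with 4.12 CPM in Visudyne 5, against 0.0254 to 0.345 CPM in the other libraries. Slc4a5, which encodes a sodium bicarbonate cotransporter, stood at 6.32 and 2.97 CPM, against 0 to 0.394 CPM in the others, and F5, the gene of coagulation factor V, at 29.7 and 15.6 CPM, against 0.573 to 1.85 CPM. Aqp1, the water channel gene of the plexus, stood at 1.34 and 1.20 CPM, against 0 to 0.127 CPM.

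The filter on low counts left 12 of the 39 untested, Kcne2, Slc4a5 and Aqp1 among them, and 10 of those 12 had Visudyne 3 and 5 as their 2 highest libraries. Of the 27 tested, F5, Htr2c and Slc12a2 were called higher in Visudyne and Slc29a4 lower by edgeR. Over all tested genes 8.98% were called higher and 11.5% lower, and nothing is read from the counts of the list. DESeq2 called 7 of the 27 higher and 1 lower, and 4419 of all 15938 tested genes either way, and nothing is read from its count either. The median log2 fold change of the 27 was 0.35, beside 0.01 over all tested genes. Tmem72, a membrane protein gene, and Cab39l, which encodes a scaffold of the kinase LKB1, were not called at an edgeR adjusted p of 0.059 and 0.087, with 53.7 and 57.7 CPM in Visudyne 3 and 54.8 and 43.4 CPM in Visudyne 5. Without Visudyne 3 and 5 the median of the list was -0.20. Htr2c, a serotonin receptor gene that both the plexus epithelium and hippocampal neurons express, measured 87.6 CPM in Visudyne 3, with 70.7 CPM in Visudyne 5, beside 63.7, 53.1 and 56.5 CPM in Visudyne 1, 2 and 4 and 31.1 to 41.04 CPM in vehicle. Its log2 fold change was 0.85 with all libraries (edgeR adjusted p = 0.015) and 0.65 without Visudyne 3 and 5, and the groups did not overlap.

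Of all genes, 12817 averaged 1 CPM or more. Visudyne 3 and 5 were the 2 highest libraries in 2.4% of these, and in 16 of them, 0.125%, they lay at least 2-fold above the other 8. Of these 16, 7 were among the 10 genes, 6 were in the list of further plexus genes, and 3 were in neither. The mean was taken over all 10 libraries, so a gene could reach 1 CPM through Visudyne 3 and 5 alone. Kcne2, Slc4a5, Cldn2, Otx2 and 1500015O10Rik were at most 0.345, 0.394, 0.437, 0.943 and 0.805 CPM in the other 8. Nothing is read from this share or make-up. The 3 in neither were Tc2n, Fap, which encodes a membrane serine protease, and 1500015O10Rik, named here after its values were seen, with a gap of 5.32-fold. With predicted models and genes that have only a clone name, such as 1500015O10Rik, left out, the 10 genes most like the chosen ones by this gap were Kcne2, F5, Slc4a5, Col8a1, Sulf1, Abca4, Tc2n, Fap, Col8a2 and Frem1. Col8a1, a collagen gene, stood at 9.71 and 4.77 CPM in Visudyne 3 and 5, against 0.534 to 1.26 CPM in the others. Sulf1, which encodes an extracellular sulfatase, stood at 16.8 and 10.5 CPM, against 2.90 to 4.03 CPM, and Abca4, a retinoid transporter gene, at 8.81 and 6.39 CPM, against 1.71 to 2.71 CPM. At the end of the 10, Frem1 had a gap of 1.71-fold.

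**Figure D4:**
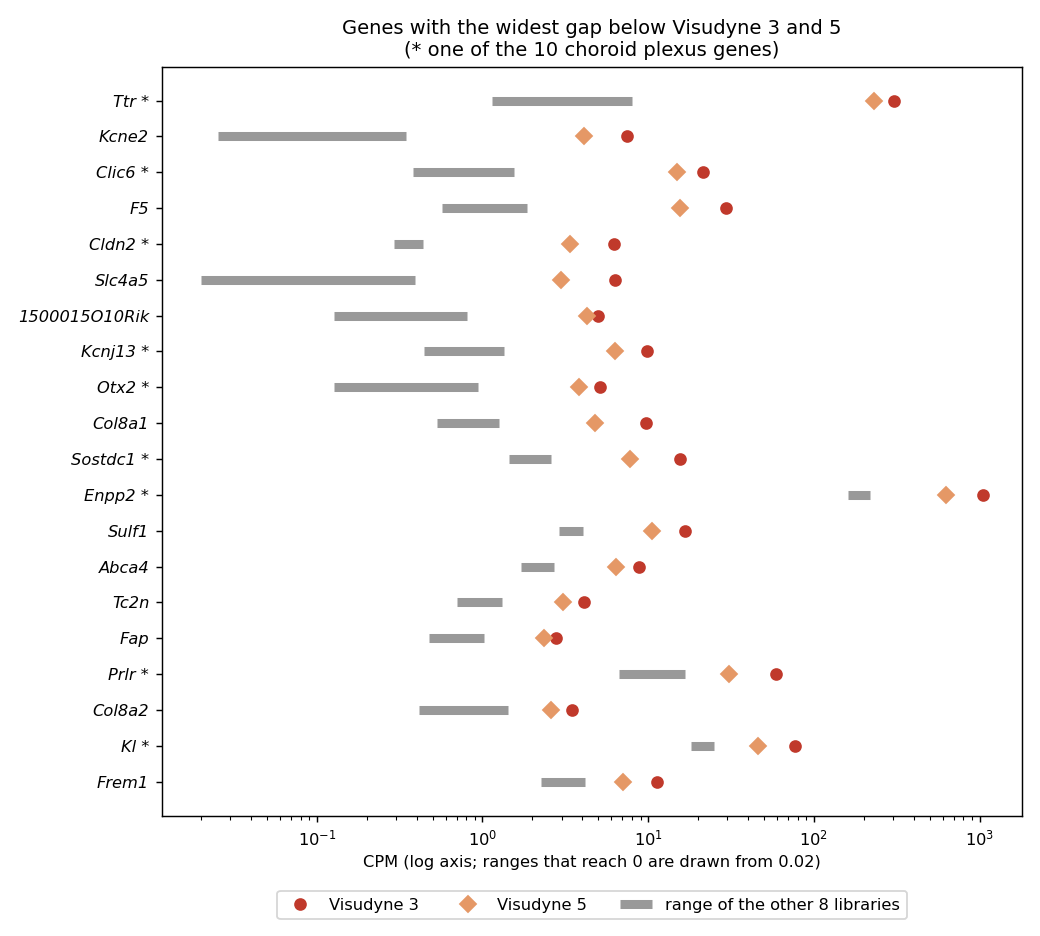
CPM (log axis) in Visudyne 3 and Visudyne 5 as points and the range of the other 8 libraries as a grey bar, for the chosen genes that average 1 CPM or more (starred), the 10 other genes with the widest gap when predicted models and genes with only a clone name are left out, and 1500015O10Rik, whose gap of 5.32-fold exceeds that of 7 of them. The gap runs from 28.6-fold for Ttr to 1.71-fold for Frem1, and Folr1, with a mean below 1 CPM, is not drawn.

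Most markers of the cells around the plexus epithelium did not have Visudyne 3 and 5 as their 2 highest libraries. Over all tested genes, 2.42% had both on top. Of 19 ependymal genes in the table, Visudyne 3 and 5 were the 2 highest libraries in 2, Mlf1 and Ak7, at 2.71 and 2.08 CPM in Visudyne 3 and 2.71 and 2.64 CPM in Visudyne 5, against 1.93 CPM at most in the others. Foxj1, the transcription factor of motile cilia, measured 0.319 CPM in Visudyne 3, with 0.391 CPM in Visudyne 5, against 0.0942 to 0.661 CPM in the others. Their summed level was 23.9 and 27.7 CPM in Visudyne 3 and 5, 15.4 to 20.7 CPM in Visudyne 1, 2 and 4 and 19.5 to 26.8 CPM in vehicle. Between the groups edgeR called 0 of the 18 tested and DESeq2 called 0. Over all 15938 tested genes edgeR called 20.5% and DESeq2 called 4419 genes. An unadjusted p under 0.05 by edgeR was held by 1 of the 18 and by 6349 of all 15938 tested genes. The 15 genes of plexus stroma and meningeal fibroblasts summed to 169.8 and 140.0 CPM in Visudyne 3 and 5, 88.2 to 128.8 CPM in Visudyne 1, 2 and 4 and 104.3 to 203.7 CPM in vehicle. Dcn, a matrix proteoglycan gene, was the only 1 of these with Visudyne 3 and 5 as its 2 highest libraries, at 70.7 and 75.4 CPM, against 25.4 to 51.4 CPM in the others. Igf2, a growth factor gene of stroma and plexus, stood at 19.5 and 10.6 CPM in Visudyne 3 and 5 and at 4.93 to 11.8 CPM in the others.

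Between the groups, Dcn was called higher and Slc6a13, Ptgds and Islr lower in Visudyne, and 11 of the 15 were not called. Over all tested genes 20.5% were called, a share that 4 of 15 is near. Ptgds, which encodes prostaglandin D synthase, measured 21.7 CPM in Visudyne 3, with 24.1 CPM in Visudyne 5, beside 12.5 to 18.5 CPM in Visudyne 1, 2 and 4 and 24.5 to 77.8 CPM in vehicle. Its log2 fold change was -1.41 (adjusted p = 0.024 by edgeR), and -1.69 without Visudyne 3 and 5. Endothelial genes summed to 112.4 and 122.6 CPM in Visudyne 3 and 5, 98.8 to 106.3 CPM in Visudyne 1, 2 and 4 and 104.0 to 118.2 CPM in vehicle.

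Genes of border macrophages and antigen presentation summed to 14.3 and 18.2 CPM in Visudyne 3 and 5, 11.4 to 15.8 CPM in Visudyne 1, 2 and 4 and 11.6 to 17.5 CPM in vehicle, and Lyz2, the lysozyme gene, was at 9.13 CPM in Visudyne 5 and at 3.07 to 4.16 CPM in the other 9 libraries. Blood cell genes summed to 3.13 and 4.77 CPM in Visudyne 3 and 5 and to 1.26 to 7.68 CPM in vehicle. Thalamic and habenular genes, of tissue that neighbours the hippocampus, summed to 109.0 and 101.4 CPM in Visudyne 3 and 5 and to 96.7 to 122.1 CPM in vehicle. Among these last 3 lists, Calb2 was the only gene with Visudyne 3 and 5 as its 2 highest libraries.

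Markers of the labelled tissue were present in every library. Prox1, the transcription factor of dentate granule cells, stood at 85.3 and 64.3 CPM in Visudyne 3 and 5, against 98.6 to 146.0 CPM in the others. Dsp, at 19.2 and 11.6 CPM against 23.3 to 34.4 CPM, and C1ql2, at 4.60 and 3.97 CPM against 5.84 to 10.7 CPM, were also lowest there. The other genes of the list did not have Visudyne 3 and 5 as their 2 lowest libraries. Neurod6, of pyramidal neurons, stood at 218.2 and 174.1 CPM, against 159.8 to 237.4 CPM in the others. The 11 hippocampal neuron genes summed to 992.2 CPM in Visudyne 3 and 772.1 CPM in Visudyne 5, 1050 to 1300 CPM in Visudyne 1, 2 and 4 and 873.6 to 995.5 CPM in vehicle. Zbtb20 alone made up 505.6 and 382.0 CPM of the sums in Visudyne 3 and 5, and single genes of the list differed in order, with Fibcd1 at 11.9 and 16.6 CPM in Visudyne 3 and 5, against 6.69 to 14.3 CPM in Visudyne 1, 2 and 4. Whether these levels bear on the plexus values was not tested. Oligodendrocyte genes, of a cell type that also makes Enpp2, summed to 2325 and 2308 CPM in Visudyne 3 and 5, 2201 to 2550 CPM in Visudyne 1, 2 and 4 and 2248 to 3042 CPM in vehicle. In 0 of these 9 genes were Visudyne 3 and 5 the 2 highest.

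**Figure D5:**
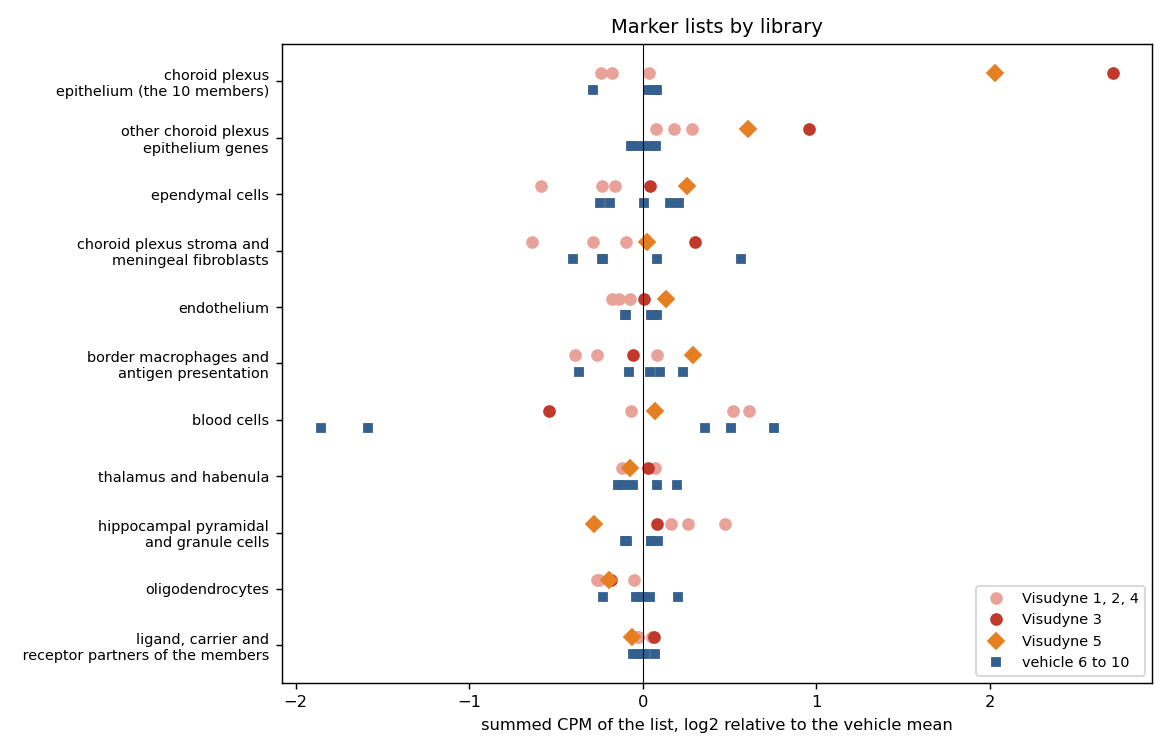
Summed CPM of each marker list per library, as log2 relative to the vehicle mean, with 1 point per library. Visudyne 3 and 5 stand apart in the first 2 lists, where the 10 genes sum to 1553 and 971.3 CPM, against 200.7 to 244.0 CPM in Visudyne 1, 2 and 4 and 194.6 to 251.3 CPM in vehicle.

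Genes that act with the 10 as carriers, receptors or transducers, 19 in number, summed to 239.9 and 219.3 CPM in Visudyne 3 and 5, 225.0 to 238.4 CPM in Visudyne 1, 2 and 4 and 220.8 to 240.5 CPM in vehicle. Visudyne 3 and 5 were the 2 highest libraries in 1 of them, Cyp24a1, at a level near 0. Lrp6, a Wnt co-receptor gene, measured 78.9 and 71.7 CPM in Visudyne 3 and 5, against 67.2 to 75.9 CPM in the other libraries. Lpar1, a receptor for the lysophosphatidic acid that autotaxin makes, stood at 28.99 and 23.6 CPM, against 24.4 to 33.4 CPM, and Jak2, the kinase of the prolactin receptor, at 63.0 and 56.0 CPM, against 48.8 to 64.0 CPM. Between the groups edgeR called 0 of the 15 tested and DESeq2 called 0. Over all 15938 tested genes edgeR called 20.5% and DESeq2 called 4419 genes. An unadjusted p under 0.05 by edgeR was held by 2 of the 15 and by 6349 of all 15938 tested genes.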

How the data were processed

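RNA of 10 hippocampi was made into stranded libraries from total RNA, as the labels' protocols state. The deposited table holds the authors' estimated counts per gene, as whole numbers. The submitters' processing notes name FastQC, Salmon and build mm10; the annotation, versions, filters and use of strand were not given in the sources read. Total counts were 24752362 to 41073906 per library, and counting intervals cover counting error only. Gene symbols and positions came from GENCODE M21 (GRCm38), which held 27053 of 27343 identifiers.

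CPM were computed from the deposited estimated counts with TMM library sizes. Groups were compared in R 4.3.3 with edgeR 4.0.16 (filterByExpr, TMM, quasi-likelihood test, no covariates, two-sided, Benjamini-Hochberg over all 15938 tested genes), with DESeq2 1.42.0 as an alternative. The SE is the log2 fold change divided by the square root of F. GC trends were per-library loess fits (span 0.3) on the GC content of the longest transcript. On simulated counts for 15938 genes with real means and library sizes, 170 of 200 genes changed 2-fold were called, and 7 unchanged genes. Each gene was drawn independently with the spread typical of its level, without effects shared within a library. These rates need not hold for genes that vary more, such as Ttr. Pairs of libraries of 1 group differed by at least 13.3 chi-square per degree of freedom. That is more than counting error, but it cannot show whether libraries came from separate animals. Each was counted as its own sample. Separate titles mark the libraries as separate samples, so p-values measure the spread between these samples. Replicate numbers run from 1 to 5 and from 6 to 10 and pair nothing.

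The 10 genes, the 11 lists and the rule for named genes were chosen with earlier results of these data known. Besides the 10 genes, the text names up to 4 abundant genes of a list and a panel (Htr2c, Aqp1, Igf2, Foxj1 and Kcne2, while Folr2 was not analysed here). It also names the 10 genes, predicted models and genes with only a clone name left out, with the widest gap between the lower of Visudyne 3 and 5 and the highest of the other 8 libraries. List genes named outside this rule, because they were called or for where Visudyne 3 and 5 stood, were chosen after their values were seen. The searched motifs and the printed promoters were chosen after the matches were seen.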

Additional observations from a re-analysis of the deposited data

Results flagged for a closer look

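Each of the 10 genes was checked for a library far from the others within each group of 5, which makes 20 checks, and chance flags about 1 in 20. Enpp2 was flagged in the vehicle group, where vehicle 9 stood at 160.7 CPM and the other 4 at 203.4 to 217.4 CPM. No gene was flagged in the Visudyne group, where a gap below 2 high libraries does not count as 1 library far from the rest.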

How the results depend on the processing

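No paired analysis was possible because the groups share no replicate number. Visudyne 3 and 5 were the 2 highest libraries for all 10 genes with TMM, DESeq2 size factors, total counts and the GC trend removed. Direction between the groups depended on those 2 libraries for 7 of the 10 genes, and Kl, Prlr and Sostdc1 were positive with and without them. Without both, the log2 fold change was -1.65 for Ttr, -2.01 for Folr1, -0.27 for Otx2, -0.15 for Enpp2, -0.52 for Clic6, -0.24 for Kcnj13 and -0.077 for Cldn2, the median of the further plexus genes was -0.20, and 1 of the 10 genes, Ttr, was called, from which nothing is read since both libraries were left out for being high. DESeq2 called 5 of the 10 and 8 of the further plexus genes, with 4419 genes called in all, against 3261 by edgeR. With the GC trend removed, 459 genes were called in all, and 0 of the 10 and 1 of the further genes. An unadjusted p under 0.05 by edgeR was held there by 9 of the 10 and by 3680 of all 15829 genes. Without a filter on low counts 2075 genes were called. Leaving out 1 library gave 10 to 5047 genes called, 0 to 7 of the 10 and 0 to 5 of the further genes. Settings for the fit without Visudyne 3 and 5 were chosen after seeing the data. With the GC trend removed it called 50 genes and 0 of the 10 (3 had an unadjusted p under 0.05, as did 3637 of all genes), with Sostdc1 at -0.0034. With total counts it called 4745 genes and 3 of the 10, with Kl at -0.13 and Sostdc1 at -0.16. Leaving out a further library gave 0 to 3367 genes and 0 to 2 of the 10, and log2 fold changes from -0.00819 to 0.189 for Kl, -0.863 to 0.165 for Otx2, -0.628 to 0.039 for Kcnj13 and -0.129 to 0.233 for Sostdc1. Total counts put the median of all genes at -0.19 with all libraries and at -0.24 without Visudyne 3 and 5, where it was 0.01 and 0 with TMM. The cause of the other changes was not tested. Outside Visudyne 3 and 5, depth limits Folr1 and Cldn2, which had at most 19 counts a library.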
